A study of Mus musculus with 35 samples.

Results

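Of the 56528 NELFA peaks called on chromosomes 1 to 19, 686 (1.21%) had their summit within 1 kb of a boundary of 2 or more different protein-coding genes, and these shared-boundary peaks are described here. A boundary is the annotated start or end coordinate of a gene in RefSeq (GRCm38.p6, the assembly that mm10 names), so that it can be the point where transcription starts or the point where the gene ends. The whole list held 59485 peaks, sex chromosomes included. On the autosomes 5122 peaks (9.06%) lay within 1 kb of at least 1 protein-coding boundary. Shared-boundary peaks therefore made up 13.4% of boundary peaks (95% Wilson interval 12.5 to 14.4%), and the other 4436 were at the boundary of a single gene. The choice of members used gene positions and not the strength of the peaks.

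The peaks came from E14 mouse embryonic stem cells that carried a doxycycline-inducible NELFA transgene with a Strep-HA tag, linked to EGFP through a P2A peptide. All cells used for chromatin immunoprecipitation (ChIP-seq) were grown with serum, LIF and 2i and were treated for 16 h with doxycycline at 0.4 µg/ml. There were 4 libraries precipitated through the HA tag, 3 with a first HA antibody (replicates 1 to 3) and 1 with a second HA antibody (replicate 3), and 3 input libraries. Input was the reference for these cells, and no library of uninduced or untagged cells was used here. The series asked about NELFA and the 2-cell-like state, a rare state of cultured stem cells marked by genes of the early embryo. It also held RNA-seq and ATAC-seq libraries, which were not analysed here.

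The 7 ChIP libraries were represented by 1 deposited peak list without values per library, so the spread between replicates and the read depth are unknown. Each fold enrichment is the authors' own linear ratio for that peak. Shares carry 95% Wilson intervals, which cover counting error only. Peaks of 1 list, and gene pairs that lie side by side, are not replicates, so no p-value was computed and differences are described by their counts and intervals. The peak list cannot check the labelled cell type, because it holds no expression values.

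NELFA is a subunit of the negative elongation factor, a complex that binds RNA polymerase II soon after it has started a gene and holds it in a paused state a short way downstream of the start. Release by the kinase P-TEFb lets the polymerase go on into the gene. Many mammalian genes start back to back, on opposite strands and a short distance apart, from what is called a bidirectional promoter. Such pairs often encode housekeeping proteins, and the core histone genes are the textbook example. Neighbouring genes can also run in the same direction (tandem) or towards each other, so that their ends meet (convergent).

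The promoters below belong to shared boundaries that carried strong peaks or stand for a gene group described later. They are RefSeq sequences of GRCm38.p6, each from 250 bases before to 50 bases after the annotated start of the named gene, written 5′ to 3′ on the strand of that gene. Capitals mark the motif words GGGCGG (GC box), CCAAT (NFY) and CCGGAAG (ETS), and the TATA box word TATAAA, on either strand.
Safb promoter: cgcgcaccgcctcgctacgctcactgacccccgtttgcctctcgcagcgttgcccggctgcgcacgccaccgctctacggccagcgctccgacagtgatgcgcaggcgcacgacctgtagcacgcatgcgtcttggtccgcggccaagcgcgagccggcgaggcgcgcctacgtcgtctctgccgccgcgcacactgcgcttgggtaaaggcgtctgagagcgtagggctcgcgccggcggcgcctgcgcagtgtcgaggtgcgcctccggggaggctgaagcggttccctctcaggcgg
Hspe1 promoter: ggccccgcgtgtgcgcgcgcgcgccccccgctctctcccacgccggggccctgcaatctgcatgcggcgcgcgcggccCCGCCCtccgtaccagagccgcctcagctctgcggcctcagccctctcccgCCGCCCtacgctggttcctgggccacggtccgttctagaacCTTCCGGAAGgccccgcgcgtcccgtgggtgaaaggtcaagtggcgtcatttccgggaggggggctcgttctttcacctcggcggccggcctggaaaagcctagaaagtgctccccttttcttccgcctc
Cbx5 promoter: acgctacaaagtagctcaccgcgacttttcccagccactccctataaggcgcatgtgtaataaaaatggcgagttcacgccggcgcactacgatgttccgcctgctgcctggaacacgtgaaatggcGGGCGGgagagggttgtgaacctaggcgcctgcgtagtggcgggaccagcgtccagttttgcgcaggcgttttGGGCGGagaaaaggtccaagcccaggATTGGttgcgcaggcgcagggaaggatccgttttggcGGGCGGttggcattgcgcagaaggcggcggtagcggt
Tcta promoter: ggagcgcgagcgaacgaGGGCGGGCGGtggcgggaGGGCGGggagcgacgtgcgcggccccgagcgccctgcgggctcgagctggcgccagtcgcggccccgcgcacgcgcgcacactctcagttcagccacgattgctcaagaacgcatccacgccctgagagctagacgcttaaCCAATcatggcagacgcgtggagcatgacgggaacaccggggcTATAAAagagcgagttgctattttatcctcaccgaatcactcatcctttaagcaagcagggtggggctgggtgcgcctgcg
Rpl12 promoter: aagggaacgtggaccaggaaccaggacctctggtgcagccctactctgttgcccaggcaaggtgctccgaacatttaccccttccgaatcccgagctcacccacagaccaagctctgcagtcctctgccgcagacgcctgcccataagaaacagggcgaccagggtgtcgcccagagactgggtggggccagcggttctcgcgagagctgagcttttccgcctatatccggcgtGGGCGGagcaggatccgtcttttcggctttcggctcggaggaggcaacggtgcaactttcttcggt
H2ac23 promoter: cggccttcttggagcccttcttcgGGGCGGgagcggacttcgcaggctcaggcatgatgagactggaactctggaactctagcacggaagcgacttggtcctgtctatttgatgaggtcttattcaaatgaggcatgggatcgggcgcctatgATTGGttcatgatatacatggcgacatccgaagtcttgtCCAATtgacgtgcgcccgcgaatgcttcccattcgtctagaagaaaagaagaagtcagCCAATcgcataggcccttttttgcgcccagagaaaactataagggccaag
H4c18 promoter: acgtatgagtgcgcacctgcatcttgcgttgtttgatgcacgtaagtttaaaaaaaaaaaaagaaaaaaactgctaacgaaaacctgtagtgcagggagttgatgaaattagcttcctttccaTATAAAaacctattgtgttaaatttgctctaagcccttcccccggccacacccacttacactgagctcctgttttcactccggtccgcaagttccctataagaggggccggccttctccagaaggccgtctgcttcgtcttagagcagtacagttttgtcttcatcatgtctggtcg
The Safb promoter (chr17:56584732-56585031, plus strand) held none of the 6 motifs searched and had a GC content of 72%, and the summit of the peak it shared with Safb2 fell on base 101 of the printed sequence, between the genes. The Hspe1 promoter (chr1:55087898-55088197, plus strand) held 2 GC boxes and an ETS word on each strand of 1 palindrome, and its summit fell on base 141. The Cbx5 promoter (chr15:103239803-103240102, minus strand) held 3 GC boxes and 1 NFY word, with the summit on base 137. The Tcta promoter (chr9:108306110-108306409, minus strand) held 3 GC boxes, 1 NFY word and 1 TATA word, and its summit fell on base 290, just after the gene's start. In the Rpl12 promoter (chr2:32961462-32961761, plus strand) there was 1 GC box, and the summit fell on base 299. The H2ac23 promoter (chr13:21810117-21810416, plus strand) held 3 NFY words and 1 GC box, and the summit lay outside the sequence, further into the gene. The H4c18 promoter (chr13:21832148-21832447, minus strand) was less GC-rich (45.3%), held 1 TATA word and had the summit on base 287.

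Sharing differed with the direction of the neighbouring genes. There were 4704 pairs of autosomal protein-coding genes whose nearest boundaries lay within 2 kb of each other, called close pairs, and 624 of them (13.3%) had at least 1 peak within 1 kb of both genes. Among pairs of genes that do not overlap, 200 of 626 divergent pairs shared a peak (31.9%, interval 28.4 to 35.7%), against 69 of 820 tandem pairs (8.41%, 6.70 to 10.5%) and 9 of 667 convergent pairs (1.35%, 0.711 to 2.54%). None of these 3 intervals overlapped another. Strand was taken from the RefSeq promoter table, which covers 79.6% of the genes and none on chromosome 18, so that both strands were known for 64.8% of close pairs and for 75.3% of those with a shared peak. The 886 non-overlapping pairs without both strands shared a peak in 10.6% of cases.

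Peaks were unevenly spread along the genome, and 311 of the 686 members (45.3%) lay in 1 Mb windows that held 30 or more peaks, here called densely covered, against 55.9% of single-gene boundary peaks and 59.7% of the peaks away from protein-coding boundaries. Outside those windows 344 of 3726 close pairs shared a peak (9.23%). The order of the arrangements was the same there, with 128 of 490 divergent pairs (26.1%), 35 of 623 tandem pairs (5.62%) and 3 of 554 convergent pairs (0.542%). Inside them the shares were 52.9% of divergent, 17.3% of tandem and 5.31% of convergent pairs.

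Among overlapping genes, divergent pairs again stood above tandem and convergent ones. Of 350 overlapping divergent pairs, whose starts each lie inside the other gene, 118 shared a peak (33.7%), against 10 of 356 overlapping convergent pairs (2.81%) and 9 of 61 overlapping tandem pairs (14.8%). Pairs annotated with nearly the same start shared a peak in 15 of 39 cases (38.5%). Pairs annotated with nearly the same end did so in 29 of 56 cases (51.8%), the highest of these shares, but in 1 of 22 outside densely covered windows. Inside such windows 28 of 34 did. All 28 were pairs of the Ugt1a cluster on chromosome 1, described below, which repeat the same few peaks and are not separate cases.

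The gap between the genes sets how much room a summit has to lie within 1 kb of both, so the arrangements were also set side by side within gap classes. Divergent pairs shared a peak in 31.8% of cases at gaps of up to 100 bp, 40.1% from there to 250 bp, 43.0% from there to 500 bp, 21.4% from there to 1000 bp and 3.28% from there to 2000 bp. Tandem pairs stood at 12.3%, 13.3%, 10.9%, 15.7% and 2.15% in the same classes, and convergent pairs never passed 4.71%. Up to 500 bp the divergent and tandem intervals did not overlap, and beyond 500 bp they did. Outside densely covered windows they also overlapped at gaps of up to 100 bp (20.9 to 32.0% divergent, 3.59 to 21.2% tandem).

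**Figure D1:**
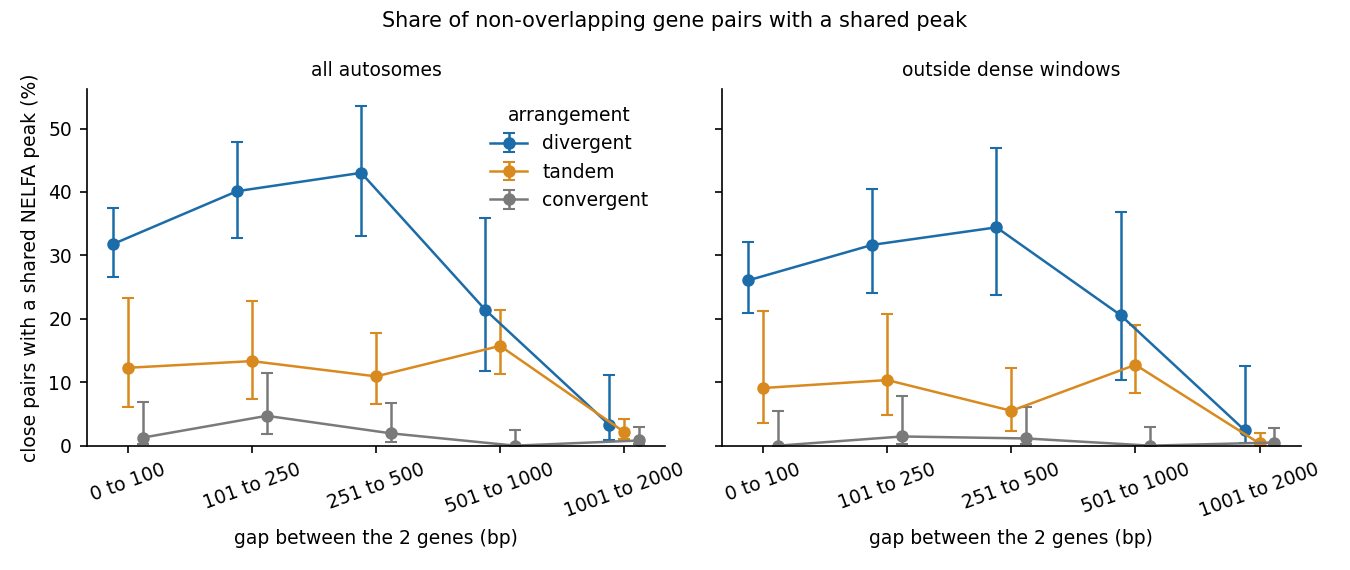
Share of non-overlapping close gene pairs with a shared NELFA peak (vertical axis, percent) by the gap between the genes in bp (horizontal axis), for divergent, tandem and convergent pairs, with 95% Wilson intervals as bars. The left panel has all autosomes and the right panel leaves out 1 Mb windows with 30 or more peaks. Divergent pairs stand highest at gaps up to 500 bp in both panels, and all 3 arrangements come close together above 1000 bp.

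At gene boundaries without a close neighbour, 1986 of 11457 isolated starts (17.3%) and 454 of 11235 isolated ends (4.04%) had a summit within 1 kb. Outside densely covered windows the shares were 13.1% of isolated starts and 0.874% of isolated ends. A divergent pair offers 2 starts and a convergent pair 2 ends, and the window within 1 kb of both genes differs in size from that of a single boundary. The shares of pairs and of isolated boundaries are therefore given side by side without a comparison.

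By peaks instead of pairs, 662 of the 686 members had exactly 2 genes and 24 had 3 or more. Divergent pairs held 378 members, tandem pairs 81, convergent pairs 21, pairs with nearly the same start 12, and pairs where 1 gene starts within its opposite neighbour 11. For 159 members a strand was missing. Divergent pairs thus held 75.1% of the 503 members with 2 genes of known strand, and 81.0% outside densely covered windows. Of 517 members with strand for every gene, 495 (95.7%) had a gene start within 1 kb, and outside densely covered windows 295 of 297 had one (99.3%). All arrangements but end to end include a start by definition, so these shares largely restate how few members were convergent. Single-gene boundary peaks with strand were nearest to a start in 2797 cases and to an end in 797. Outside densely covered windows the counts were 1455 and 110.

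The 81 tandem members join the end of an upstream gene to the start of the next one. At the 74 tandem members of non-overlapping genes the nearest boundary was a start in 54 cases (73.0%, 61.9 to 81.8%), and in 28 of 33 outside densely covered windows (84.8%). By the counts above, single-gene boundary peaks were also mostly nearest to a start, so this is not particular to tandem members. Of the 21 convergent members 19 lay in densely covered windows. Their fold enrichment ran from 1.77 to 2.13, and none reached 3. The strongest convergent members were those of Slc25a18 and Atp6v1e1 (2.13-fold), Hipk4 and Pld3 (2.09-fold) and Gys1 and Ftl1 (2.04-fold), which encode a mitochondrial carrier and a proton pump subunit, a kinase and a phospholipase-family protein, and glycogen synthase and ferritin light chain.

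At non-overlapping divergent genes most summits lay just inside one of the genes. Of the 236 members at non-overlapping divergent pairs, 210 (89.0%) had the summit inside 1 of the genes and 26 (11.0%) between them. The space between the starts was put at 11.6% of the window within 1 kb of both, on average. This is slightly too high, since 2 pairs with gaps over 1000 bp entered with more than the whole window. The share between the genes alone was thus close to what the space allows. Within the genes, however, the summits were not spread evenly. The median summit lay 117.5 bp downstream of the nearer start, and 163 of the 236 (69.1%) lay 1 to 250 bp downstream, which is 65.2 summits per 100 bp, against 6.27 per 100 bp from there to 1000 bp downstream. The farther zone is only in part open to members, since a wide gap shortens it. Outside densely covered windows 99 of 143 lay 1 to 250 bp downstream (69.2%), and among members of fold 3 or more 32 of 38 did (84.2%). At the 142 members of overlapping divergent pairs, 59 summits lay inside both genes and 83 inside 1. Their median signed position was -49.5 bp from the nearer start, and 37.3% lay 1 to 250 bp downstream of it. Where the genes overlap, a summit upstream of the nearer start lies inside the other gene, downstream of the other start. The signed values of overlapping and non-overlapping pairs are therefore not comparable. Without the sign, the median distance to the nearer start was 124 bp, against 122.5 bp at non-overlapping pairs.

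**Figure D2:**
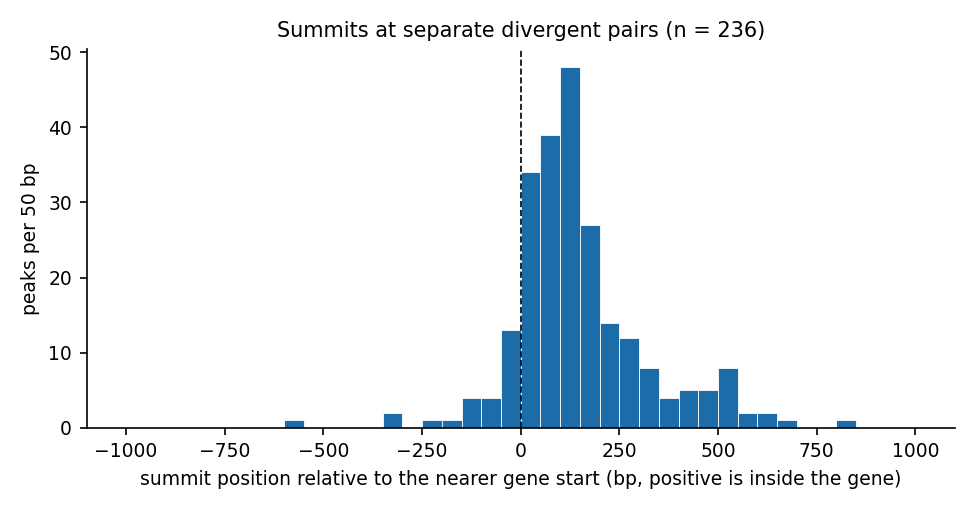
Number of shared-boundary peaks per 50 bp (vertical axis) by the position of the summit relative to the nearer gene start in bp (horizontal axis, positive values inside the gene), for the 236 members at non-overlapping divergent pairs. The dashed line is the gene start, and most summits lie within 250 bp to its right.

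Most pairs shared a single peak, but some carried several. Of the 624 pairs 467 shared 1 peak, 111 shared 2, 22 shared 3 and 24 shared 4. Among the 190 non-overlapping divergent pairs that were the only genes of their members, 42 had 2 or more peaks, and in 27 of these there was a summit inside each of the genes. Tada3, which encodes a subunit of histone acetyltransferase complexes, and its divergent neighbour Arpc4, an actin-nucleating Arp complex subunit, showed this: summits lay 72 bp inside Tada3 (2.59-fold), 77 bp inside Arpc4 (2.31-fold) and 503 bp inside Tada3 (1.95-fold). The ubiquitin ligase scaffold Cul4a and its neighbour Pcid2 likewise had summits 253 bp inside Cul4a (2.63-fold) and 85 bp and 547 bp inside Pcid2 (2.50-fold and 2.41-fold). Both pairs lie in densely covered windows. Outside such windows 19 of 124 pairs had several peaks, and 9 of the 19 had summits inside each gene.

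In strength, shared-boundary peaks lay within the range of other peaks. Their median fold enrichment was 2.09 (quartiles 1.95 and 2.54, range 1.77 to 10.8), against 2.18 for single-gene boundary peaks and 2.09 for peaks away from protein-coding boundaries. A fold of 3 or more was reached by 95 members (13.8%), against 15.8% of single-gene boundary peaks and 13.9% of all autosomal peaks. Outside densely covered windows the shares were 9.60% of members, 11.2% of single-gene boundary peaks and 11.6% of the peaks away from boundaries. The median width was 179 bp for members, against 190 bp for single-gene boundary peaks. Divergent members had a median fold of 2.13 and tandem members of 2.22, with intervals that overlapped, while convergent members stood at 1.95.

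**Figure D3:**
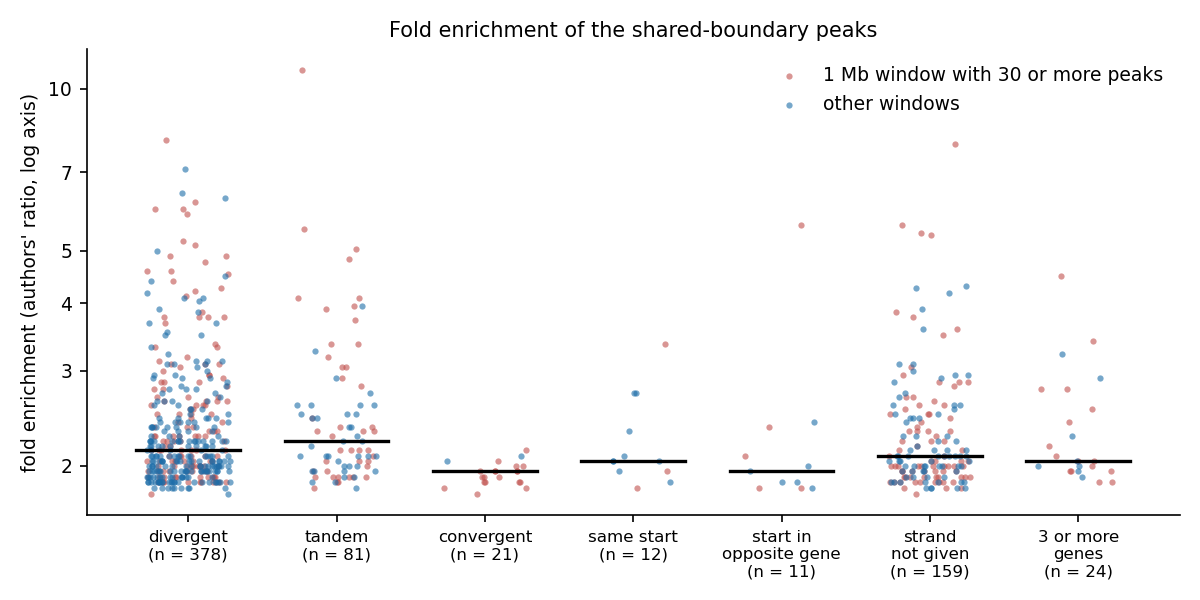
Fold enrichment of each of the 686 shared-boundary peaks (vertical axis, the authors' linear ratio on a log axis) by the arrangement of its genes (horizontal axis), with red points for densely covered 1 Mb windows, blue points for other windows and black lines for medians. Most peaks of every arrangement lie between 1.8 and 2.6, the 21 convergent peaks stay at or below 2.13, and the strongest point is the tandem histone pair at 10.8.

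Outside densely covered windows the highest fold was at Srsf7, a splicing regulator, and Gemin6, a subunit of the SMN complex that assembles spliceosomal particles (chr17:80206670-80207435, 7.08-fold). Its summit lay 114 bp inside Srsf7. Next came Safb and Safb2, a pair of related nuclear matrix and RNA-binding proteins (chr17:56584311-56585225, 6.40-fold), whose summit sat almost midway between the genes, 150 bp from Safb and 157 bp from Safb2. Hspd1 and Hspe1, the mitochondrial chaperonin and its co-chaperonin, shared a peak of 6.26-fold (chr1:55087608-55088433) with the summit 110 bp from the start of Hspe1 and inside Hspd1.

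Below these stood Ddx5, an RNA helicase, with the centrosomal gene Cep95 (4.99-fold), and Srsf2, another splicing regulator, with Mfsd11 (4.49-fold). Snx5, an endosomal sorting nexin, and Mgme1, a nuclease of mitochondrial DNA, start 2 bp apart and shared a peak of 4.40-fold with the summit 155 bp inside Snx5. The co-chaperone gene St13 and the mitochondrial peptidase gene Xpnpep3 shared a peak of 4.31-fold. Rpl36 and the mitochondrial protease gene Lonp1 shared one of 4.27-fold, the histone variant gene H2ax and Dpagt1, an enzyme of N-glycosylation, one of 4.18-fold, and Tcta and the small GTPase gene Rhoa, which start 1 bp apart, one of 4.18-fold. Among these 10, strands were known for 7 pairs, and all 7 were divergent. Some of the 10 summits lay well away from the boundaries. The distances were 794 bp and 845 bp for Rpl36 and Lonp1, and 604 bp and 860 bp for Srsf2 and Mfsd11. The summit near Cep95 (205 bp) lay 750 bp from Ddx5, and the summit near H2ax (74 bp) lay 894 bp from Dpagt1.

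Inside densely covered windows, the replication-dependent histone genes H4c18 and H2ac24 had the highest fold of all members (chr13:21831495-21834430, 10.8-fold), with the summit 36 bp inside H4c18 and 863 bp from H2ac24. Predicted gene models of chromosome 17 followed, Gm3448 with Gm3435 (8.03-fold) and Gm3417 with 9030025P20Rik (7.90-fold). Cbx5, a heterochromatin protein, and the RNA-binding protein gene Hnrnpa1 shared a peak of 6.17-fold (chr15:103239621-103240146) with the summit 23 bp inside Hnrnpa1. H2bc23 and H2ac23 shared one of 5.99-fold. In these windows the treatment of reads that align to several places, which the sources used here do not give, bears on peaks at gene copies, and its part in the fold was not tested.

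Ndufa13, a subunit of respiratory complex I, and the testis kinase gene Tssk6 shared 4 peaks on chromosome 8, the strongest of 5.58-fold, in a window of 224 peaks. Zbtb25 and Zbtb1, divergent zinc-finger transcription factor genes that overlap, with starts 163 bp apart, also shared 4, with folds of 2.41, 2.00, 1.95 and 1.82, in a window of 24 peaks. The other pairs with 4 peaks were of the Ugt1a cluster on chromosome 1, whose genes for glucuronosyltransferases have separate first exons and nearby annotated ends. Ugt1a8 and Ugt1a6b end at position 88218998 and the other 7 genes at 88220002. All 36 close pairs among the Ugt1a genes shared a peak, through 5 peaks of 1.86-fold to 2.77-fold in a window of 119 peaks. Of these, 3 lay within 1 kb of the ends of all 9 genes, 1 near the ends of Ugt1a8 and Ugt1a6b and 1 near those of the other 7. These pairs repeat the same peaks and are not separate cases.

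Nelfa itself was among the genes. It is on the minus strand, and the boundary it shares with Nsd2, a histone methyltransferase gene, is its end. The genes overlap there, with boundaries 50 bp apart. The stronger of its 2 peaks (chr5:33897187-33897906, 2.50-fold) lay inside Nsd2, with the summit 130 bp from the end of Nelfa. The other (chr5:33898042-33898482, 2.22-fold) lay inside Nelfa. The cells carry a NELFA transgene. Whether it contains the sequence under this second peak is not known here, and a part of transgene reads in that peak was not tested.

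Histone genes were the group with the highest share. Of 55 histone genes with a close neighbour 42 shared a peak (76.4%, 63.7 to 85.6%), against 1118 of 6864 protein-coding genes with a close neighbour (16.3%). They took part in 35 members, of which 32 had at least 2 histone genes, 15 of these divergent, 11 tandem and 4 with a strand missing. By pairs, 9 of 16 divergent pairs with a histone gene shared a peak, against 10 of 17 tandem or convergent pairs. The median fold of the 35 was 3.95, against 2.09 for all members. Beside the pairs above, H2bc7 and H2ac7 shared a peak of 5.99-fold, H2ac12 and H2bc12 one of 5.85-fold, and the tandem pairs H2ac13 with H3c10 and H2ac4 with H3c2 had 5.49-fold and 5.04-fold. In both tandem pairs the summit lay close to the start of the H3 gene (99 bp and 132 bp), and 868 bp and 885 bp from the H2a gene. Of the 35 members 32 lay in densely covered windows. The 3 outside had a median of 2.09-fold. The histone genes are of several types, and how alike their sequences are was not measured. Where genes of the same type are alike, their peaks are uncertain as to which copy gave the reads. The treatment of reads that align to several places is not known here, and its part in these peaks was not tested.

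Genes for cytosolic ribosomal proteins shared a peak in 18 of 45 cases (40.0%, 27.0 to 54.5%), and in contrast to the histones 16 of their 21 members lay outside densely covered windows. By arrangement, 10 of 12 divergent pairs with a ribosomal protein gene shared a peak, against 2 of 26 tandem or convergent pairs. Over all genes the corresponding counts were 318 of 976 (32.6%) and 97 of 1904 (5.09%). Rpl7a, which starts 43 bp from the Mediator subunit gene Med22, had 3.90-fold with the summit 156 bp inside Rpl7a. Rpl12 and the ubiquitin ligase gene Lrsam1 had 3.54-fold with the summit 48 bp inside Rpl12. Rplp2 and Pidd1, a death-domain adaptor, had 3.22-fold with the summit 1 bp from the start of Rplp2. The summit was nearest to the ribosomal protein gene in 14 of 21 members, and in 8 of 10 at divergent pairs.

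Mitochondrial ribosomal protein genes shared a peak in 15 of 50 cases (30.0%) and genes of oxidative phosphorylation in 18 of 63 (28.6%). Mrps18b with the phosphatase regulator gene Ppp1r10 reached 4.54-fold, but its summit lay 524 bp from Ppp1r10 and 596 bp from Mrps18b, in a window of 93 peaks. Sdha, the catalytic subunit of succinate dehydrogenase, and Ccdc127 shared a peak of 3.13-fold with the summit 14 bp from Sdha. Atp5a1, of the ATP synthase, shared one of 3.59-fold with Haus1. For mitochondrial ribosomal proteins the summit was nearest to the listed gene in 9 of 17 members, and for oxidative phosphorylation in 10 of 22 members with exactly 2 genes.

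Chaperone genes shared a peak in 16 of 46 cases (34.8%, 22.7 to 49.2%). After Hspd1 and Hspe1 the strongest were Cct7, a subunit of the cytosolic chaperonin, with Pradc1 (4.90-fold), Dnaja1, a co-chaperone, with Aptx (4.04-fold), and Dnajb4 with Fubp1 (3.49-fold). In the last of these the summit lay 174 bp from Fubp1 and 184 bp from Dnajb4.

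The transcription machinery on which NELFA acts was itself represented. Of 31 genes of RNA polymerase II, pausing, elongation and the Integrator complex with a close neighbour 13 shared a peak (41.9%, 26.4 to 59.2%). By pairs, 8 of 12 divergent pairs shared a peak, against 1 of 18 tandem or convergent pairs. Ints13, of the Integrator complex, which cleaves nascent transcripts, had 2 peaks with Fgfr1op2. Their folds were 3.77, with the summit 449 bp from Ints13, and 3.13, with the summit 155 bp from Fgfr1op2. Polr2l, a small polymerase subunit, and Tspan4 shared a peak of 2.54-fold. The median fold of the 15 members was 2.13.

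In other groups the intervals reached down to, or nearly to, the share over all genes. Splicing genes shared a peak in 10 of 35 cases (28.6%, 16.3 to 45.1%), translation factor genes in 9 of 36 (25.0%), DNA repair and replication genes in 13 of 68 (19.1%), proteasome genes in 5 of 27 (18.5%) and tRNA synthetase genes in 3 of 19 (15.8%). Eif4a1, an RNA helicase of translation initiation, was a strong tandem case with Senp3 (3.95-fold, summit 152 bp from Eif4a1). Psmc5, a proteasomal ATPase, with Ftsj3 had 2.18-fold, and the checkpoint kinase gene Atr with 1700065D16Rik had 2.63-fold. The proteasome list, made by symbol, also took in Psme3ip1, an interaction partner and not a subunit.

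Zinc-finger genes shared a peak in 26 of 107 cases (24.3%, 17.2 to 33.2%), with a median fold of 2.04. Their strongest member was at Zfp36l1, an RNA-binding regulator of transcript decay, and the gene model Gm52006 (2.90-fold). Olfactory, vomeronasal and killer lectin receptor genes shared a peak in 1 of 22 cases, at Vmn1r4 and Nt5c3 (2.22-fold). Of the 29 listed genes of the 2-cell state, which include the Dux and Zscan4 families, 1 had a protein-coding neighbour within 2 kb, and it shared no peak.

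**Figure D4:**
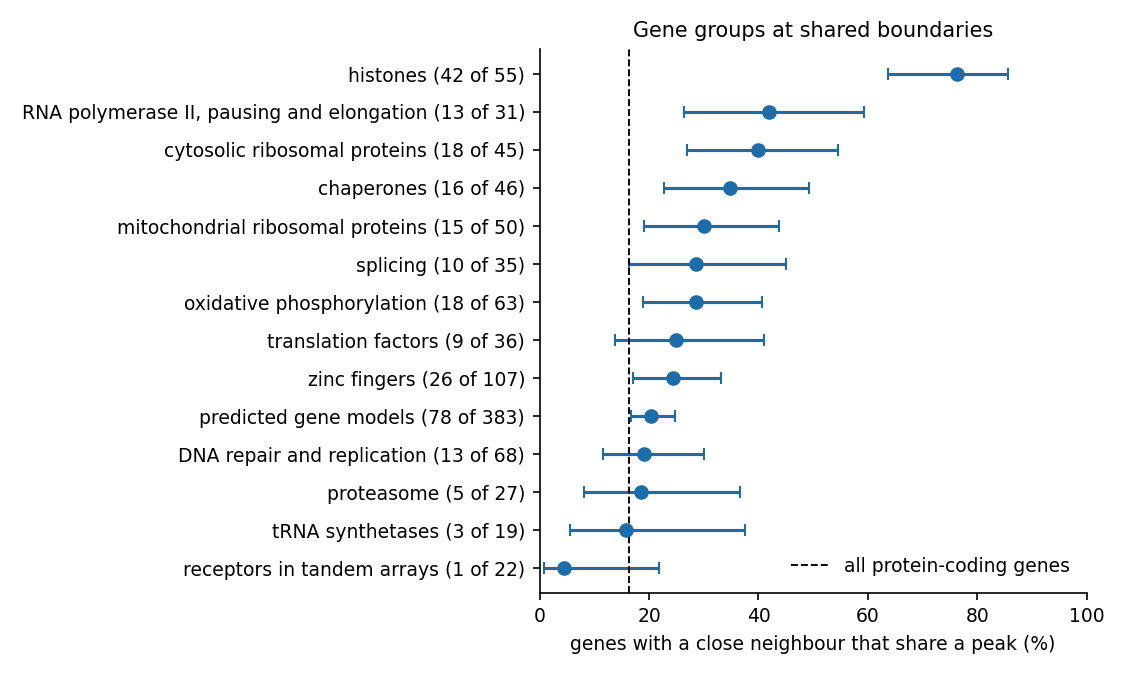
Share of genes with a close neighbour that share a peak (horizontal axis, percent) for each gene group with 10 or more such genes (rows), with 95% Wilson intervals as bars and the share over all protein-coding genes (16.3%) as the dashed line. Histones stand at 76.4%, polymerase and ribosomal protein genes near 40%, and DNA repair, proteasome and tRNA synthetase genes near the line.

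Promoters of shared divergent boundaries were richer in CpG than those of divergent pairs without a shared peak. Of the 631 promoters of divergent pairs with a shared peak 89.9% (87.3 to 92.0%) had a CpG ratio (observed over expected count) of at least 0.6, against 76.3% (73.9 to 78.5%) of 1305 promoters of divergent pairs without one, with medians of 0.88 and 0.79. Isolated starts with a peak stood at 77.8%, isolated starts without one at 44.6% and all 16457 promoters at 49.8%. The median GC content was 63.7% with a shared peak and 60.7% without one at divergent pairs. Promoters of a close divergent pair overlap in part, so they are not independent, and the table lists a start that is the outer gene boundary for 59.8% of genes.

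Of 6 motifs searched on both strands, NRF1 (the palindromic consensus of this factor of nuclear genes for mitochondria, in its unshifted and shifted form) had intervals that did not overlap between divergent promoters with and without a shared peak. It occurred in 34 of 631 with a shared peak (5.39%, 3.88 to 7.44%), against 26 of 1305 without one (1.99%, 1.36 to 2.90%) and 1.91% of all promoters. The promoters of a close pair overlap in part, so 1 word can count for both genes and the intervals are too narrow. Whether they stay apart when each pair counts once was not tested. The ETS word CCGGAAG occurred in 24.6% with a shared peak and 25.9% without one, against 12.3% of all promoters. The GC box (GGGCGG) stood at 66.7% with and 61.5% without a shared peak, against 47.3% of all promoters. The NFY word CCAAT was at 36.3% with and 42.8% without, against 39.1% of all. With histones left out of the promoters with a shared peak, NFY stood at 34.4% (30.8 to 38.3%) there. The interval without a shared peak (40.1 to 45.5%) was not recomputed without histones, so the lack of overlap does not compare like with like. The YY1 word AAGATGGCG was at 5.39% with and 4.37% without, against 1.92% of all. The TATA word TATAAA was at 6.97% with and 5.29% without, against 13.5% of all promoters. Isolated starts with a peak had the GC box in 66.9%, NFY in 37.0%, ETS in 16.2%, YY1 in 3.98% and TATA in 7.60%. NRF1 occurred in 4.63% of them (3.79 to 5.65%), an interval that overlapped that of divergent promoters with a shared peak. The GC box and NRF1 shares are thus not particular to shared boundaries. The NRF1 words overlap each other and were counted as 1 motif, and no word of 1 motif contains a word of another.

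**Figure D5:**
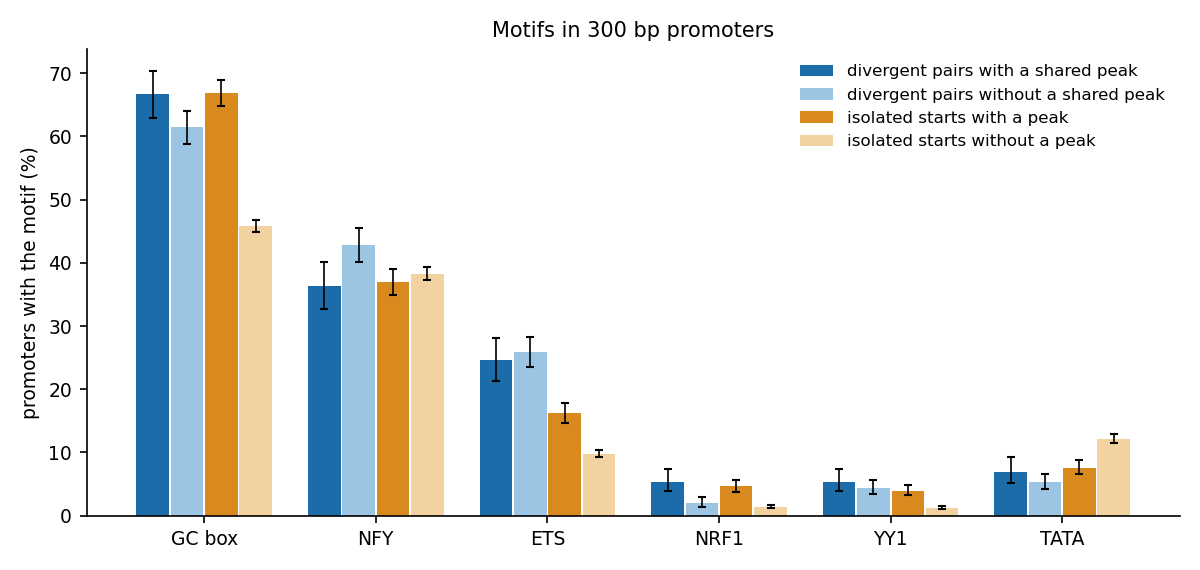
Share of 300 bp promoters holding each motif on either strand (vertical axis, percent) for 4 classes of gene start, with 95% Wilson intervals as bars. GC box, ETS and YY1 words are more frequent in both divergent classes than at isolated starts without a peak, and NRF1 words are more frequent in both classes with a peak.

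The histone promoters went another way. Of 42 histone genes sharing a peak 37 had a promoter sequence, and 35 of these held a CCAAT word (94.6%) and 22 a TATAAA word (59.5%), while none held the ETS word. Their median GC content was 44.3%. Leaving histones out of the divergent promoters with a shared peak changed the TATA share to 5.38%, against 6.97% with them. For ribosomal proteins, 15 of 18 promoters were in the table and 13 of these had a CpG ratio of at least 0.6.

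Chromosome 8 held 135 members (19.7%), against 13.7% of autosomal peaks, and 105 of its 276 close pairs shared a peak (38.0%). Chromosome 6 held 66 members (9.62%), against 14.7% of peaks, with 52 of 170 pairs (30.6%). On the other autosomes shares ran from 1.75% of 457 pairs on chromosome 18 to 28.6% of 133 pairs on chromosome 13, which carries the histone clusters. Chromosome 18 had the most close pairs of any autosome. Whether many of them repeat the same boundaries, as the Ugt1a pairs do, was not examined. Such repeats would bear on its share and on the 13.3% over all close pairs. Without chromosomes 6 and 8 the shares were 28.5% of divergent, 6.57% of tandem and 0.657% of convergent pairs. Members near the 1 kb limit were ordinary peaks. Ell with Isyna1 (2.04-fold) and Dap3 with Ash1l (1.95-fold) had their second gene at 1000 bp and 999 bp, while peaks at Foxj3 (2.90-fold) and Gm3127 (2.27-fold) had theirs at 1002 bp and were left out.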

How the data were processed

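ChIP-seq of HA-tagged NELFA in doxycycline-treated E14 cells was represented by 1 deposited peak list, made from 4 immunoprecipitated and 3 input libraries. The submitters' processing notes name the mm10 build, MACS2, SAMtools 1.4, Trim Galore 0.4.2 and Bowtie2 2.2.9. Not given in the sources used here are the version and settings of MACS2, the pooling of libraries and the treatment of multi-mapping reads. The deposited list has no header. Its fold enrichment column holds the linear ratio that the authors' peak caller gave each peak, and a second deposited column holds each peak's −log10 q (lowest 1.31), from the authors' q-value. The deposited score column was not used. Start, end and summit offset are other deposited values, in bp. The depth is unknown.

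Summits were converted to 1-based positions and matched to RefSeq protein-coding gene boundaries (GRCm38.p6, 20665 autosomal genes) with a window of 1 kb. Strand came from the RefSeq promoter table. Close pairs had boundaries within 2 kb, and densely covered windows held 30 or more peaks per 1 Mb. With 1 list there are no replicates, so no test was run; shares carry 95% Wilson intervals. CpG ratios and motifs were counted in promoters of 300 bp. The members, gene lists and motifs were chosen with earlier results of these data known. Genes were named by rank of fold (the 10 strongest outside and 5 inside densely covered windows, 3 per arrangement, up to 4 per gene list), by number of genes or peaks, or by nearness to the 1 kb limit. Tada3 with Arpc4, Pcid2 with Cul4a and the weaker peaks of named pairs fall outside that rule and were named after their values were seen. The procedure was tested on simulated data. Alternatives were windows of 500 bp and 2 kb, a −log10 q of at least 4, the median fold as minimum, interval overlap, other gene sets and the list without densely covered windows or chromosomes 6 and 8. The scripts ran on matplotlib 3.10.9, scipy 1.17.1 and pandas 2.3.3, with numpy 2.4.6 under Python 3.11.15.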

Additional observations from a re-analysis of the deposited data

How the results depend on the processing

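No paired analysis was possible because the libraries were deposited as 1 peak list without a column per library, and for the same reason no replicate could be left out. The number of shared-boundary peaks moved by more than 1.5 times with a 500 bp window (449), a 2 kb window (1050), a −log10 q of at least 4 (295), the median fold as minimum (378), peaks outside densely covered windows (375) and overlapping genes left out (433), against 686. Their share of boundary peaks was 11.7%, 14.8%, 12.5%, 12.4%, 16.1% and 8.45% under the same settings, against 13.4%. The median fold was 2.63 at a −log10 q of at least 4 and 2.50 with the median fold as minimum, which remove weak peaks by construction, and 2.18 with peaks of the same genes counted once, against 2.09.

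The share of close pairs with a shared peak was 6.74% at a −log10 q of at least 4, 8.38% with the median fold as minimum, 9.23% outside densely covered windows and 11.0% without chromosomes 6 and 8, against 13.3%. For pairs within 1 kb, a setting chosen after the data were seen, it was 17.0%. Divergent pairs stood at 16.9%, 21.2% and 26.1% under the q, fold and dense-window settings, against 31.9%. Tandem pairs stood at 6.03% with 500 bp, 11.1% with 2 kb, 4.76% with the q minimum, 5.73% with the fold minimum, 5.62% outside densely covered windows, 6.57% without chromosomes 6 and 8 and 13.6% within 1 kb, against 8.41%. Convergent pairs stood at 0.474%, 3.67%, 0.150%, 0.450%, 0.542% and 0.657% under the first 6 of these, against 1.35%. Divergent stood above tandem and tandem above convergent in each of these settings. The share of summits between non-overlapping genes was 19.8% with 2 kb and 9.33% with the q minimum, against 15.6%. Of 72 named peaks 40 lay outside densely covered windows and 59 passed the q minimum. Weak members near the limit of calling and peaks at gene copies are the least certain, and the depth behind them is unknown.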

Other observations

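On chromosome X, which the members leave out, none of 106 close pairs of protein-coding genes shared a peak, which allows a share of up to 3.50% by the upper Wilson bound. None of its 29 divergent pairs did, which allows up to 11.7%. The chromosome carried 1796 peaks, of which 29 lay at the boundary of a single protein-coding gene (1.61%, 1.13 to 2.31%).

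Predicted gene models with a close neighbour shared a peak in 78 of 383 cases (20.4%, 16.6 to 24.7%), and 80 of the 686 members (11.7%) had such a model among their genes. By arrangement, 26 of 87 divergent pairs with a model shared a peak (29.9%), against 19 of 131 tandem or convergent pairs (14.5%). After the chromosome 17 models named above, the strongest of these members lay between the tandem genes Ifnz, an interferon gene, and Gm13272 (4.83-fold), in a window of 58 peaks. Next was Trim28, a corepressor of transposable elements, with Gm31649 (4.77-fold), whose summit lay inside both genes in a window of 49 peaks.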
